A study of Xenopus laevis with 6 samples.

Results

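The genes of the proteasome were followed across animal and vegetal blastomere RNA of 8-cell *Xenopus laevis* embryos. A gene was taken as a member when its annotated symbol, without the final .L or .S, was psm followed by a, b, c, d, e or g and a number. The suffixes .L and .S name the homeologs, the gene copies on the long and short chromosome sets of this allotetraploid frog. The rule found 59 genes on 72 probe sets, of 11303 named genes and 32539 probe sets that were not controls. Of these members, 33 were .L and 26 were .S copies. A filter on low intensity left 55 members on 63 probe sets for testing, of 8026 genes on 19523 probe sets. Among the tested members 3, *psmb6.S*, *psmd9.S* and *psmg1.L*, passed the filter although the mean log2 value of 1 group lay under it. So did 1 further probe set each of *psmc1.L* and *psmd3.S*. Where such a probe set was called it had to differ, so its call is listed but supports nothing. The RefSeq gene table holds 80 genes that meet the rule, and 21 of them had no probe set assigned to them alone here.

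The proteasome is the protease that breaks down ubiquitin-tagged proteins in the cytoplasm and nucleus. Its barrel-shaped core is built of stacked rings of alpha subunits (psma), which form the gate, and beta subunits (psmb), some of which cut peptide bonds. A cap on either end binds ubiquitin chains, removes them and threads the unfolded substrate into the core. The cap consists of a base, with a ring of ATPases (psmc) and non-ATPase subunits, and a lid (both named psmd). Other caps, the activators (psme), open the gate without ATP, and dedicated chaperones (psmg and some psmd proteins) build the particle and are not part of it when it is finished. These roles were worked out mainly in yeast and mammals. In frog eggs the proteasome degrades cyclin B as the egg leaves meiosis, and the early embryo divides with the RNA and protein that the mother stored in the egg.

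Total RNA was amplified, labelled with biotin and hybridised to 6 arrays in 1 colour. RNA of animal blastomeres, the upper and pigmented cells, went on 3 arrays. RNA of the lowest piece of the yolky vegetal blastomeres went on the other 3. In the dissection each vegetal cell was divided, its equatorial piece was thrown away and its vegetal-most piece kept. The embryos came from natural matings of 2 hormone-treated pairs of adults, were dejellied in cysteine and were fixed in ethanol and acetic acid before dissection. Both groups share this fixation, and the labels name no strain, other treatment or transgene for either. The labels number the arrays 1 to 3 within each group and do not say that they came from separate clutches, so that p-values measure the spread between these arrays, which may be technical. The aim stated by the series was to find transcripts enriched in animal cells. Each array measured bulk RNA of dissected pieces, in which fewer contributing cells and less RNA per cell cannot be told apart.

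Values are the deposited linear intensities, whose 2% trimmed mean was 150 on each array, as the values show. They are compared within a probe set and never between genes. A difference is log2 animal minus log2 vegetal, so that positive values mean more signal in animal RNA. A gene was called when its adjusted p was under 0.05 in limma, with the Benjamini-Hochberg adjustment over all probe sets tested. Arrays of 1 group correlated at 0.981 to 0.987 over the tested probe sets and arrays of different groups at 0.889 to 0.895. The known vegetal RNAs checked were higher in vegetal arrays for 8 of 8 genes, and the known animal RNAs in animal arrays for 4 of 4. The 8 include *grip2.L*, at 2.8, 3.1 and 7.8 in animal arrays, which passed the filter through its vegetal values alone. Of 7 blood genes, 5 stayed at or below the brightest unspiked control on all arrays, and the summed blood signal was 453.2 to 528.4 in animal and 624.7 to 690.6 in vegetal arrays, nearly all from *slc4a1.L*. Of 4 genes listed for follicle cells, *fshr.L* and *cyp19a1.L* were not above those controls on any array. *star.S* was above them on 1 animal array alone. The summed signal was 623.9 to 648 in animal and 1881 to 2152.2 in vegetal arrays, nearly all from *cyp17a1.L*. As this sum rests on 1 gene, it does not measure follicle cell content, which was not tested. The ratio of 3′ to 5′ signal for *gapdh*, a sign of RNA length, was 3.96 to 4.31 in animal and 6.96 to 7.77 in vegetal arrays. For actin the ratio of 3′ to middle signal was 7.02 to 7.93 in animal and 11.7 to 14.7 in vegetal arrays. The 3′ to 5′ ratio for *ef1a* overlapped between groups, at 0.385, 1 and 2.5 in animal and 1.44, 4 and 3.5 in vegetal arrays. The part of these differences in the results below was not tested.

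Proteasome RNAs differed between the poles by small amounts, and more of the called ones were higher in animal than in vegetal cells. Animal RNA held more of 18 of the 55 tested members and vegetal RNA more of 4 (limma, adjusted p under 0.05), and 33 did not pass the test. The 18 include *psmb6.S*, which passed the filter through its animal values alone. Over all genes tested, 27.1% were called higher in animal and 23.7% in vegetal RNA, 50.9% together. The members' shares were 32.7% and 7.27%, 40% together, so that the share called animal lay near that of all genes. At an unadjusted p under 0.05 in limma the members counted 21 and 5 of 55, and all genes 2391 and 2119 of 8026. The same counts of all genes apply to the unadjusted counts of the subcomplexes below. The median difference was 0.15 over the members and 0.03 over all tested genes, with quartiles of -0.17 and 0.55 for the members and of -0.32 and 0.42 for all genes. This split depends on how arrays are scaled: it was 15 animal to 4 vegetal after quantile normalisation, 10 to 12 after median centring and 22 to 0 after scaling to spiked controls. The 3 animal and 3 vegetal values did not overlap for 23 members, 41.8%, against 58.3% of all genes.

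Few members differed by as much as 2-fold. Called differences of at least 2-fold, each higher in animal RNA, were found for *psmc3.S*, *psma6.L* and *psmd1.L*, and were fitted for *psmb6.S*, which passed the filter through its animal values alone. These are 4 of the 55 tested members, and 0 were called vegetal at that size. Of the 8026 tested genes, 638 were called animal and 527 vegetal at that size, 14.5% together. The animal share of the members thus lay near that of all genes. Of the members, 51 lay within 2-fold, 92.7%, against 85.4% of all genes. Both homeolog suffixes gave calls in both directions: 10 animal and 2 vegetal among 31 tested .L genes (median 0.19), and 8 and 2 among 24 tested .S genes (median 0.07).

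**Figure D1:**
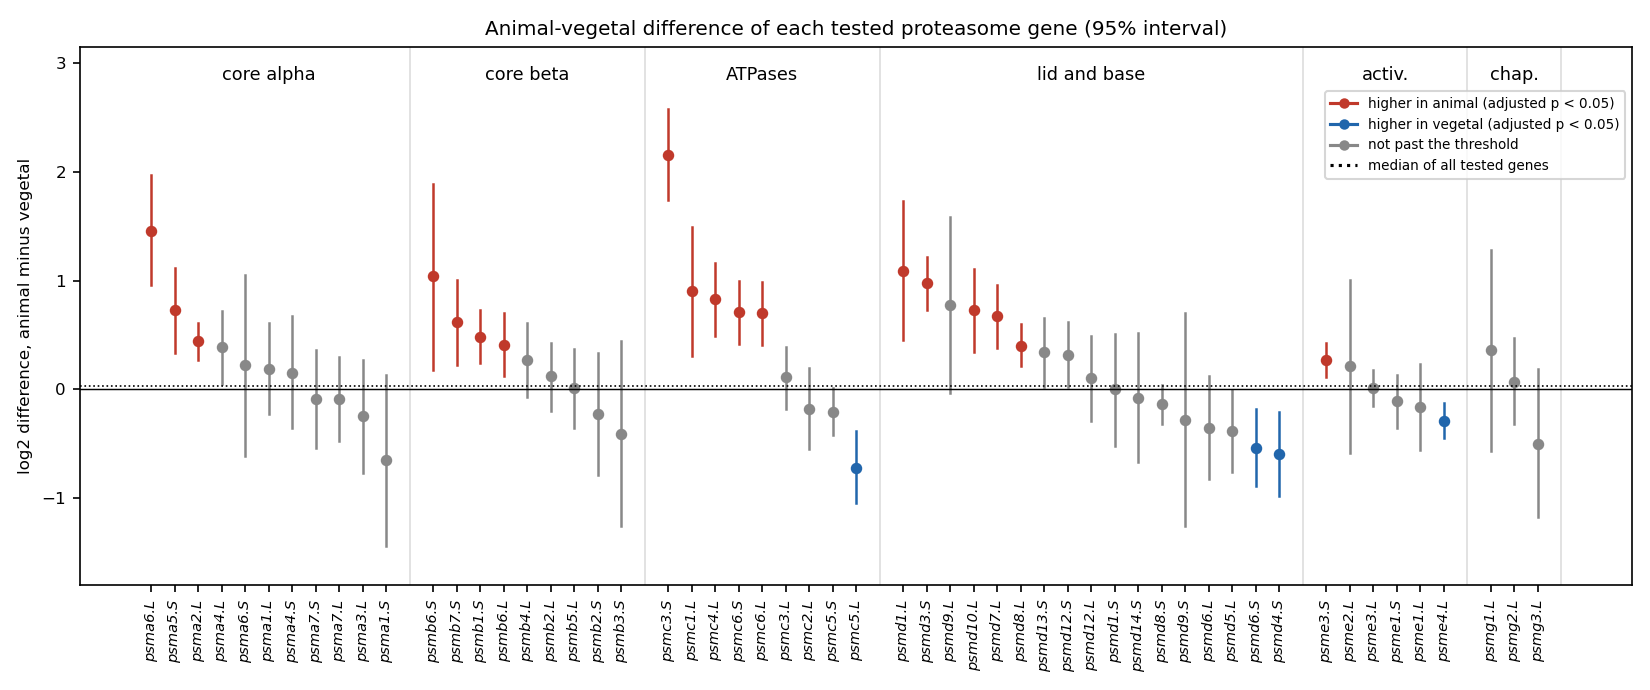
Log2 difference, animal minus vegetal, of each of the 55 tested proteasome genes (points) with its 95% interval (bars), by subcomplex and in order of the difference; activ. and chap. stand for activators and chaperones. Calls are 18 animal and 4 vegetal, and the 2 largest differences are *psmc3.S* (2.16) and *psma6.L* (1.46); the dotted line is the median of all tested genes, 0.03.

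In the core particle, the barrel that cuts the substrate, 7 of 20 tested genes were higher in animal RNA and 13 did not pass the test. The animal share was 35%, and of all genes 27.1% were called animal and 23.7% vegetal. That share counts *psmb6.S*, which passed the filter through its animal values alone. None, 0 of the 20, was called higher in vegetal RNA in limma (0 at an unadjusted p under 0.05 too, against 8 in the animal direction), although 1 core gene was called vegetal under median centring, 1 with no filter and 1 without vegetal array 2. The median difference of the core, which counts *psmb6.S* too, was 0.21. Among the alpha subunits, which form the outer rings and the gate, 3 of 11 tested genes were called, all animal. Their share of 27.3% lay near the 27.1% of all genes called animal. The median was 0.19, which was -0.03 under quantile normalisation and -0.08 under median centring.

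The alpha subunit gene *psma6.L* read 52.5, 46.2 and 40.6 on the animal arrays and 14.8, 20.7 and 15.4 on the vegetal arrays. The probe set's ID marks possible binding to several transcripts. The lowest animal value was well above the highest vegetal value, and the mean of 46.4 ± 5.95 (SD, n = 3) against 17 ± 3.25 made a 2.75-fold difference (95% interval 1.94 to 3.91, limma adjusted p = 0.000113). *psma5.S* read 115.4, 87.6 and 85 in animal and 69, 59 and 46.5 in vegetal RNA, 1.66-fold (1.26 to 2.18, limma adjusted p = 0.00401). *psma2.L* read 767.1, 755.6 and 694.8 against 536.2, 538.7 and 556.5. Its groups were tight and separate, at 739 ± 38.9 and 544 ± 11.1 (SD, n = 3), and differed 1.36-fold (1.21 to 1.53, limma adjusted p = 0.000298). The call of *psma2.L* ended under median centring (adjusted p = 0.103, of a range from 0.000135 to 0.103 over its alternatives), whereas *psma5.S* and *psma6.L* were called in every alternative that tested them, 16 and 14 of them.

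The other alpha subunit genes were not called. *psma4.L* did not overlap between groups, at 117.2, 93 and 86.9 against 73.3, 81.8 and 70.9, and its difference of 0.39 had a limma adjusted p of 0.0506. The call was gained without animal array 3 (adjusted p = 0.0401) or without vegetal array 2 (0.0479). *psma1.S* lay on the vegetal side at -0.65 (95% interval -1.44 to 0.13), with dim and overlapping values of 9, 9.3 and 6.7 against 14.8, 8.7 and 17. It passed the test without vegetal array 2 (adjusted p = 0.0491, of a range from 0.0441 to 0.441). *psma7.L* and *psma7.S* were both at -0.09, *psma3.L* at -0.25 and *psma4.S* at 0.15.

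Of the beta subunit genes, 4 of 9 tested were higher in animal RNA and 0 in vegetal RNA in limma (unadjusted 4 and 0), with a median of 0.27 that was 0.14 under quantile normalisation, 0 under median centring and 0.07 without vegetal array 3. They included the proteolytic subunits *psmb6* (caspase-like) and *psmb7* (trypsin-like) and the structural *psmb1*. Their share was 44.4%, and of all genes 27.1% were called animal and 23.7% vegetal. This share and the median count *psmb6.S*, which passed the filter through its animal values alone, so that they do not set the beta genes apart. The call count is not firm: it was 2 without animal array 1, 2 without animal array 2, 1 under quantile normalisation and 0 under median centring. *psmb1.S* read 255.4, 324.9 and 281.3 in animal and 218.6, 211.8 and 184.8 in vegetal RNA. These groups did not overlap, and the 1.4-fold difference (1.18 to 1.66) had a limma adjusted p of 0.0027, which was 0.151 under median centring and 0.00174 at its lowest. *psmb7.S* read 85.2, 95.2 and 84.1 against 72.9, 58.7 and 44.2, 1.53-fold (1.16 to 2.02, limma adjusted p = 0.0119). Vegetal array 3 was the lowest of the 6, and without it the adjusted p was 0.0528. Without animal array 2 it was 0.053, within a range from 0.00161 to 0.133 over the alternatives.

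*psmb6* was tested on both homeologs. *psmb6.L* read 149.6, 127.8 and 121.8 in animal and 103.3, 91.9 and 104.9 in vegetal RNA, 1.33-fold (1.09 to 1.62, limma adjusted p = 0.0191). *psmb6.S* was near the background, at 10.2, 13.8 and 9.9 against 3.6, 6.8 and 6.6, and 1 of 3 vegetal arrays was above the unspiked controls. It passed the filter through its animal values alone, so no fold is given and its call (limma adjusted p = 0.0416) is no support. The call of *psmb6.L* ended without animal array 1 (adjusted p = 0.0957) and without vegetal array 2 (0.0662), in a range from 0.0131 to 0.388. That of *psmb6.S* ended without animal array 1 (0.0734), animal array 2 (0.147), animal array 3 (0.0662) or vegetal array 1 (0.131), in a range from 0.021 to 0.147.

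Among the beta genes without a call, *psmb4.L* was at 0.27, *psmb2.L* at 0.12, *psmb2.S* at -0.23 and *psmb3.S* at -0.41. *psmb5.L*, which encodes the chymotrypsin-like subunit, was at 0.01 by its brightest probe set (-0.36 to 0.37, limma adjusted p = 0.982). A 2nd *psmb5.L* probe set was called higher in animal RNA, at 0.53 (limma adjusted p = 0.0337). Below the intensity filter lay 4 members, which were not tested with the rest. Of these, 2 are subunits of the immunoproteasome, a form of the core known from immune cells of mammals. *psmb8.L* read 0.3, 4.5 and 0.6 in animal and 11.3, 8.7 and 11.2 in vegetal RNA, above the unspiked controls on 0 of 3 animal and 3 of 3 vegetal arrays, which bounds the vegetal excess at at least 2.11-fold against the level of those controls. With no filter its limma adjusted p was 0.0393, which rests on animal values under those controls and is no support. *psmb9.S* read 8.1, 7.6 and 6.6 against 14.3, 4.8 and 0.3, with vegetal values on both sides of the animal ones. The rest were *psma3.S*, at 4.1, 6.1 and 8.1 against 2.3, 2.7 and 5, and *psmd14.L*, at 4.9, 6 and 5.1 against 5.9, 7.6 and 8.7. Neither passed the test with no filter (adjusted p = 0.207 and 0.285).

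The ATPases of the base, which unfold the substrate and drive it into the core, had calls that went both ways. Of 9 tested genes 5 were higher in animal RNA, 1 was higher in vegetal RNA and 3 did not pass the test. The shares were 55.6% animal and 11.1% vegetal, against 27.1% and 23.7% of all genes. The median difference was 0.70, the highest of the subcomplexes as deposited, and lay above that of all genes by 0.67, or by 0.59 under quantile normalisation. It fell to 0.11, below the alpha (0.39) and beta (0.34) subunits, when the lowest 60% of probe sets were left out, with 7 genes tested and 3 animal calls, and to 0.11 when probe sets of possible shared binding were left out, below the alpha (0.17) and beta (0.26) subunits, with 7 tested and 2 animal calls. No test between subcomplexes was made.

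By the brightest probe set of each gene, *psmc3.S* had the largest difference of the tested members. It read 90.2, 76.8 and 82.2 on the animal arrays and 17.3, 20.7 and 17.8 on the vegetal arrays. The means of 83.1 ± 6.74 and 18.6 ± 1.84 (SD, n = 3) differed 4.47-fold (95% interval 3.35 to 5.97, limma adjusted p = 2.98e-07), and the call was kept in the 15 alternatives that tested it. *psmc4.L* read 110.5, 106.7 and 88 against 61.1, 57 and 53.4, without overlap, 1.77-fold (1.41 to 2.23, limma adjusted p = 0.000422). *psmc1.L* was dim, at 31.1, 30 and 21.1 against 12.1, 17.3 and 14.4, 1.87-fold (1.24 to 2.81, limma adjusted p = 0.0129). Its probe set may bind several transcripts, and the call ended when such probe sets were left out (adjusted p = 0.301), under median centring (0.0608), and without animal array 1 (0.0605) or animal array 2 (0.117), in a range from 0.00216 to 0.301.

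Both homeologs of *psmc6* were higher in animal RNA by a like amount. *psmc6.L* read 215, 162.1 and 174.6 in animal and 103.3, 124.9 and 109.5 in vegetal RNA, 1.63-fold (1.33 to 1.99, limma adjusted p = 0.000545). *psmc6.S* read 129.4, 122.7 and 109.8 against 71.8, 73.7 and 75, 1.64-fold (1.34 to 2.01, limma adjusted p = 0.000505). In each the lowest animal value lay above the highest vegetal one. Both probe sets have an ID that marks possible binding to several transcripts, so their signals may not be separate.

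*psmc5.L* went the other way. It read 59.2, 66.2 and 63.5 in animal and 101.7, 89.7 and 120.9 in vegetal RNA, and its groups did not overlap. The vegetal mean of 104 ± 15.7 exceeded the animal mean of 63 ± 3.53 (SD, n = 3) by 1.64-fold (1.3 to 2.07, limma adjusted p = 0.00138), which became 0.0894 under scaling to spiked controls, in a range from 7.9e-05 to 0.0894. *psmc5.S* was not called, at 355, 324.1 and 320.5 against 349.3, 376.1 and 431.4, a difference of -0.21 (-0.42 to 0.01, limma adjusted p = 0.0989). Without vegetal array 1, which overlapped the animal values, the adjusted p was 0.0394, and the vegetal count of the ATPases was then 2. *psmc2.L* overlapped, at 83.1, 59.5 and 55.7 against 70.8, 75.9 and 73.9, with a difference of -0.18.

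The psmd genes encode the lid, the rest of the base and several chaperones of base assembly. Of 17 tested genes, 5 were called animal, 2 were called vegetal and 10 did not pass the test. The shares were 29.4% animal and 11.8% vegetal, 41.2% together, against 27.1%, 23.7% and 50.9% of all genes. The animal share thus lay near that of all genes. The median was 0.10, and it was -0.09 under quantile normalisation and -0.17 under median centring. The 3 base genes gave 1 animal and 1 vegetal call, the 10 tested lid genes 3 and 1, and the 4 chaperone genes 1 and 0 in limma (unadjusted 1 and 1). In the base, *psmd1.L*, a large scaffold subunit, read 32.1, 21.2 and 39.9 in animal and 11.2, 17.9 and 14 in vegetal RNA. The animal values were scattered but did not overlap the vegetal ones, and the 2.13-fold difference (1.37 to 3.32) had a limma adjusted p of 0.00672, or 0.058 with no filter and 0.000242 at its lowest.

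*psmd4.S* encodes a ubiquitin receptor of the base. It read 61.8, 71.1 and 75.1 in animal and 139.1, 91.9 and 89.6 in vegetal RNA. The groups did not overlap, and the vegetal level was 1.51-fold higher (1.16 to 1.98, limma adjusted p = 0.0117). Vegetal array 1 stood above the others, and without it the adjusted p was 0.0649, in a range from 0.00102 to 0.322 over the alternatives.

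In the lid, *psmd3.S*, a structural subunit, read 248.4, 228.5 and 224.6 in animal and 118.9, 128 and 109.7 in vegetal RNA, 1.97-fold (1.66 to 2.33, limma adjusted p = 4.72e-06). The animal values were close to each other and far above the vegetal ones. *psmd7.L*, the partner of the deubiquitinase psmd14 within the lid, read 172.2, 176.3 and 141.4 against 96.5, 114.3 and 95.9, without overlap, 1.6-fold (1.31 to 1.95, limma adjusted p = 0.000729). *psmd8.L*, another structural lid subunit, read 768.4, 721.7 and 878.6 against 641, 585.2 and 565, 1.32-fold (1.15 to 1.51, limma adjusted p = 0.00192). The call of *psmd3.S* ended when probe sets of possible shared binding were left out (adjusted p = 0.342, of a range from 3.49e-07 to 0.342), and that of *psmd8.L* ended under median centring (0.313, of 3e-04 to 0.313) and with the mean of its probe sets.

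*psmd6.S*, a structural lid subunit, was higher in vegetal RNA, at 77.7, 128.4 and 112.1 in animal and 155.4, 142 and 154.9 in vegetal arrays. Its 1.45-fold difference (1.14 to 1.85) had a limma adjusted p of 0.0134. Animal array 1 was the lowest of the 6, and without it the difference was -0.33 with an adjusted p of 0.0686, in a range from 0.000971 to 0.285. Without that array the vegetal count of the psmd genes was 1. Its homeolog *psmd6.L* was at -0.36 (limma adjusted p = 0.196). *psmd14.S*, which encodes the deubiquitinase itself, was at -0.08 (limma adjusted p = 0.833). *psmd12.S* at 0.32 (limma adjusted p = 0.0682) and *psmd13.S* at 0.34 (0.0669) lay near the threshold and passed it without vegetal array 2 (0.017 and 0.0138).

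Of the base chaperones, *psmd10.L* (gankyrin in mammals) was higher in animal RNA. It read 89.7, 80.3 and 71.1 against 53.3, 39.4 and 53.6, without overlap, 1.66-fold (1.27 to 2.17, limma adjusted p = 0.00345), and was called in all 16 alternatives. *psmd9.L* was at 0.78 (limma adjusted p = 0.099) and passed the test without animal array 3 (0.0494), and *psmd9.S* was at -0.28. *psmd5.L* was at -0.38 (limma adjusted p = 0.0805) and passed it without vegetal array 1 (0.035).

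**Figure D2:**
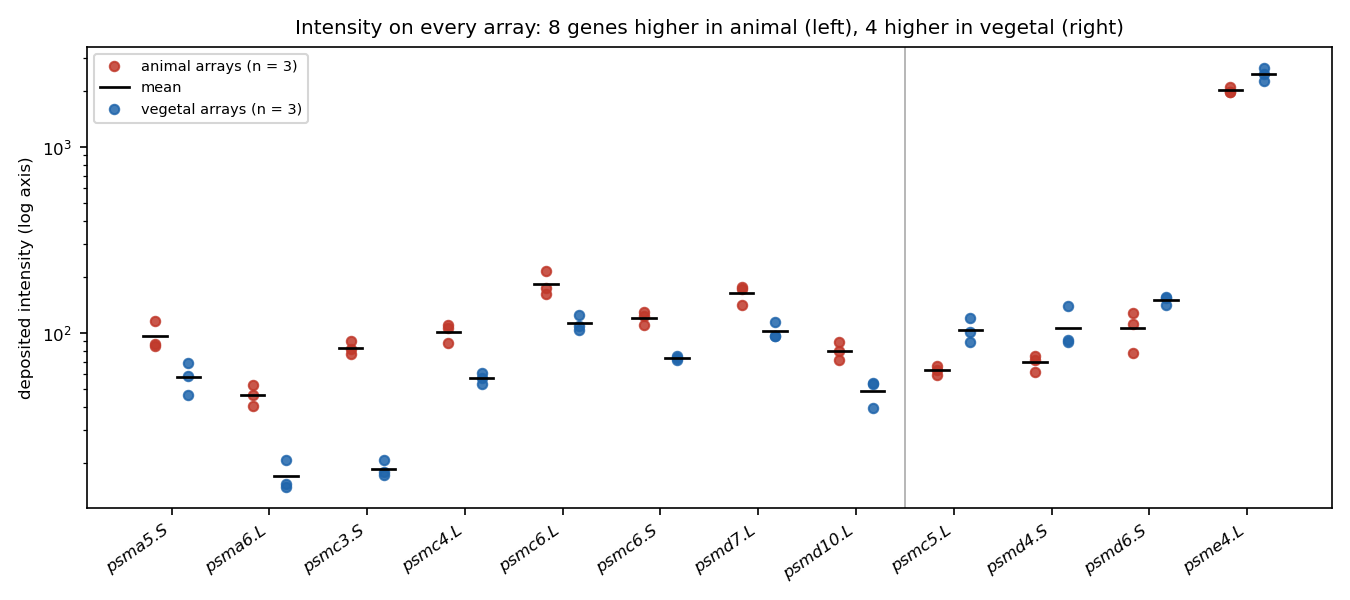
Deposited intensity (log axis) of 12 proteasome genes on each of the 3 animal (red) and 3 vegetal (blue) arrays, with the group mean as a bar. The 8 genes on the left were called higher in animal RNA in every alternative that tested them, and the 4 on the right are the members called higher in vegetal RNA; none of the 12 overlaps between groups. *psmc3.S* has the widest gap, with means of 83.1 and 18.6.

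The activators, which open the core without ATP, spanned the narrowest range of differences among the subcomplexes. Of 6 tested genes, 1 was called animal and 1 vegetal, and the range of the 6 was -0.29 to 0.27 with a median of -0.05. The share called in either direction was 33.3%, against 50.9% of all genes. *psme3.S*, the nuclear activator, read 948, 946.9 and 919.4 in animal and 774.3, 793.7 and 765.5 in vegetal RNA. Its groups were tight and separate, 1.21-fold apart (1.08 to 1.34, limma adjusted p = 0.00611), and the adjusted p was 0.991 under median centring and 0.000765 at its lowest. *psme4.L*, the large single-chain activator, read 1983.8, 1969.3 and 2098.3 against 2661, 2277.8 and 2474.2, 1.22-fold higher in vegetal RNA (1.1 to 1.37, limma adjusted p = 0.00438). That call ended under quantile normalisation, scaling to spiked controls and the fit with no mean-variance trend, in a range from 0.000274 to 0.712. The cytoplasmic activator genes *psme1.L* (-0.16), *psme1.S* (-0.11) and *psme2.L* (0.21) were not called.

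The 3 core assembly chaperones gave 0 calls in limma in either direction, and 0 at an unadjusted p under 0.05. Of all genes 50.9% were called. *psmg2.L* read 53.8, 59.1 and 56.6 in animal and 52.2, 66.1 and 45 in vegetal RNA, a difference of 0.07. *psmg1.L*, its partner in the mammalian chaperone pair, was dim, at 6.9, 8.9 and 11 against 4.1, 10.9 and 7.2. *psmg3.L* read 11, 14.1 and 11.7 against 13.3, 25.3 and 15.1, a difference of -0.50 (limma adjusted p = 0.215). In all 3 the groups overlapped.

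Both homeologs were tested for 16 proteasome genes. For these, the difference between .L and .S on each array was fitted over all 1357 homeolog pairs of the table, which asks whether the animal-to-vegetal ratio differs between the copies. The ratio differed for 6 of the 16 pairs, 37.5%, against 43.6% of all pairs (limma, adjusted p under 0.05). The median size of the difference between copies was 0.43 for proteasome pairs and 0.45 for all pairs. Both copies were called in the same direction in 2 of 16 pairs, *psmb6* and *psmc6*, against 291 of all 1357. They were called in opposite directions in 0 of 16, against 121 of 1357. With 16 pairs, these counts are too small to set the proteasome pairs apart from all pairs. *psmb6.S* passed the filter through its animal values alone, and the *psmc6* probe sets may share signal.

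The widest gap between copies was that of *psmc3*. Its .S copy was 4.47-fold higher in animal RNA, as above, while *psmc3.L* read 128.6, 111.7 and 141.7 in animal and 127.6, 117.1 and 109.2 in vegetal RNA, with overlap and a difference of 0.11 (-0.18 to 0.39, limma adjusted p = 0.532). The .L minus .S difference was -2.05 (95% interval -2.41 to -1.7, limma adjusted p = 9.67e-05) and stayed past the threshold in the 15 alternatives that tested it, at -1.53 when all probe sets of a gene were averaged. Median centring and scaling to spiked controls are among these and cannot change a difference between copies, in this or any pair. A 2nd probe set of *psmc3.L*, described below, gave a larger animal excess than the one used here.

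In *psma6* and *psmd1* the .L copy was called and the .S copy was not. *psma6.S* was dim, at 7.4, 7.2 and 10.5 in animal and 5.5, 8.8 and 7.3 in vegetal RNA. *psmd1.S* read 54.5, 33.4 and 47 against 33, 45.4 and 57.6, with full overlap. The .L minus .S differences were 1.24 for *psma6* (0.66 to 1.82, limma adjusted p = 0.00706) and 1.10 for *psmd1* (0.57 to 1.62, limma adjusted p = 0.00755). Both stayed past the threshold in every alternative that tested them, 14 and 15, with highest adjusted p-values of 0.0265 and 0.0299. The *psma6.L* probe set may bind several transcripts, and *psma6* could not be tested without such probe sets.

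A further 3 pairs were called and were less stable. In *psmd8* the .L minus .S difference was 0.54 (0.23 to 0.85, limma adjusted p = 0.016), with *psmd8.S* at 614.9, 609.3 and 561.3 in animal and 697.3, 663.5 and 607.7 in vegetal RNA, opposite in sign to its homeolog but not called. The call ended with the mean of all probe sets (0.0928). The *psmd8.S* probe set may bind several transcripts, and the *psmd8* pair could not be tested without such probe sets. In *psmc5* the .L minus .S difference was -0.51 (-0.84 to -0.18, limma adjusted p = 0.0239), with *psmc5.L* at -0.72 and *psmc5.S*, not called, at -0.21. In *psma1* it was 0.85 (0.23 to 1.46, limma adjusted p = 0.0349). *psma1.L* read 49.2, 41.4 and 39 against 41.3, 36.1 and 35.7, and neither *psma1* copy was itself called. Leaving out an array ended the *psma1* and *psmc5* calls without animal array 1 (adjusted p = 0.0924 and 0.076), animal array 3 (0.0983 and 0.0532), vegetal array 1 (0.0807 and 0.0655) or vegetal array 3 (0.0756 and 0.0625).

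The other 10 pairs did not pass the test. The narrowest intervals around no difference were those of *psmc6* at -0.01 (-0.33 to 0.31) and *psme1* at -0.05 (-0.37 to 0.26). As the *psmc6* probe sets may share signal, the value of that pair cannot show that its copies are alike. *psmd9* at 1.06 (limma adjusted p = 0.0969) and *psmb6* at -0.63 (-1.39 to 0.14) had wide intervals, with both *psmd9* copies and *psmb6.S* dim. *psme3* was at -0.26 (limma adjusted p = 0.0921), where *psme3.S* was called and *psme3.L*, at 1017.7, 1097.4 and 1113.8 against 1125.5, 1029.1 and 1042.8, was not.

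**Figure D3:**
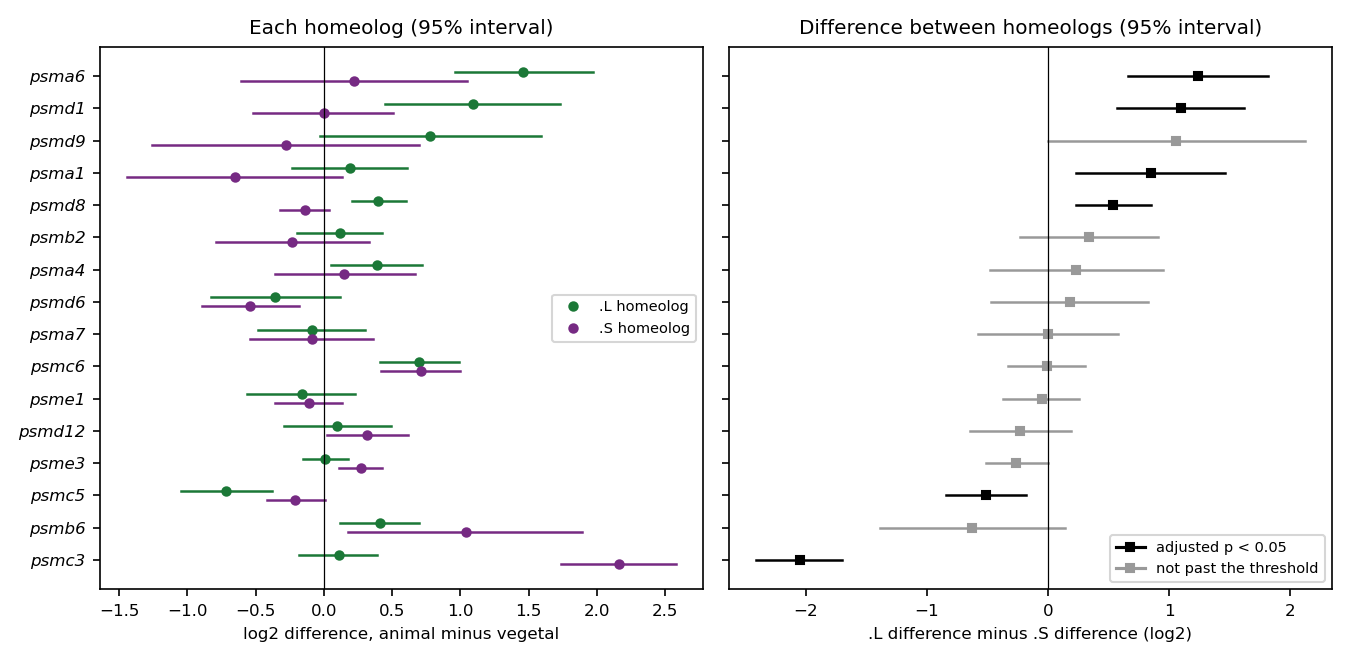
Left, log2 difference, animal minus vegetal, of the .L (green) and .S (purple) copy of 16 proteasome genes with 95% intervals; right, the .L minus .S difference with its 95% interval, black where the limma adjusted p is under 0.05. The 6 black pairs run from *psmc3* at -2.05 to *psma6* at 1.24.

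Several members had more than 1 tested probe set, which gives a 2nd reading of the same gene. Of all tested probe sets, with or without a gene symbol, 52.2% were called. Of the 6 members with several, 2 had probe sets more than 1 log2 unit apart, 33.3%, against 20.6% of 1692 genes: *psmc3.L*, and *psmd3.S* through a probe set that passed the filter by its animal values alone. The median distance was 0.58 for the members and 0.48 for all genes. In 0 of these 6 members were probe sets called in opposite directions, against 124 of the 1692 genes. With 6 members, a count of 0 does not set them apart from all genes.

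For *psmd3.S* the brightest probe set, described above, may bind several transcripts. A 2nd probe set read 33.2, 28.4 and 36.3 in animal and 18.5, 30.4 and 32.5 in vegetal RNA, with overlap, and was not called (0.30, limma adjusted p = 0.344). A 3rd read 86.8, 48.1 and 37.9 in animal RNA and 0.2, 0.7 and 3.6 in vegetal RNA, where 0 of 3 arrays were above the unspiked controls. Against the level of those controls it was at least 9.6-fold higher in animal RNA. This probe set passed the filter through its animal values alone, so its test is no support. The 3 probe sets thus gave differences of unlike size for the same gene name, and which of them measures the transcript was not tested.

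For *psmc3.L* the brightest probe set was not called, while the other read 38.2, 45.4 and 51.5 in animal and 18.9, 26.5 and 16.2 in vegetal RNA, without overlap, 2.22-fold (1.55 to 3.2, limma adjusted p = 0.00113). With the mean of both, *psmc3.L* was called higher in animal RNA at 0.63 (limma adjusted p = 0.00714). For *psmd8.L* the brightest was called and the other, at 203.7, 205.1 and 213.8 against 205.6, 239.3 and 213.7, was at -0.08 (limma adjusted p = 0.555). For *psmb5.L* the brightest was at 0.01 and the other at 0.53 (limma adjusted p = 0.0337). For *psmc1.L* the brightest was at 0.90 and another, not called, at 0.41, and a 3rd read 12.5, 9.6 and 8.5 against 5.2, 5.4 and 4.2. The 3rd passed the filter through its animal values alone, with 1 of 3 vegetal arrays above the controls. For *psmd4.S* the brightest was at -0.60 and the other, not called, at -0.50.

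**Figure D4:**
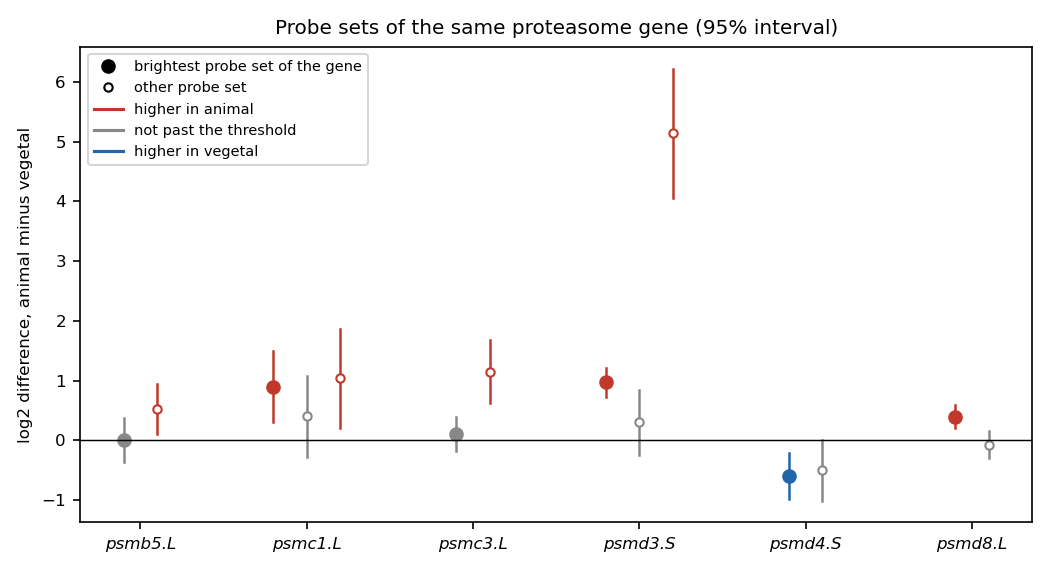
Log2 difference, animal minus vegetal, of each tested probe set of the 6 proteasome genes with several, with 95% intervals; the filled point is the brightest, which stands for the gene in the counts. The fitted 5.14 for a *psmd3.S* probe set rests on vegetal values under the unspiked controls and is no bound; that bound is at least 9.6-fold. The open *psmc1.L* point at the top and this one passed the filter through animal values alone.

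The direction of the members as a group follows the scaling of the arrays. The median difference of all genes was 0.03 as deposited, -0.02 after quantile normalisation, -0.24 after median centring and 0.27 after scaling to spiked controls. The members' median was 0.15, -0.03, -0.12 and 0.39. Median centring and spiked controls shift all genes alike, so the distance between members and all genes, 0.12 as deposited, could change under quantile normalisation alone, where it was -0.01. Of the members' calls, 81.8% were animal as deposited, against 53.3% over all genes; the same shares were 78.9% and 48.6% with quantile normalisation, 45.5% and 26.6% with median centring, and 100% and 77.1% with spiked controls. Relative to all genes the ATPases lay 0.67 above as deposited and 0.59 with quantile normalisation. The beta subunits lay 0.24 and 0.16 above, the alpha subunits 0.16 above and 0.01 below (-0.01), and the psmd genes 0.07 above and 0.07 below (-0.07). The beta median counts *psmb6.S*, which passed the filter through its animal values alone. The psmd median counts *psmd9.S*, which passed it through its vegetal values alone. Across all alternatives, 8 of the 18 animal calls were kept wherever the gene was tested: *psma5.S*, *psma6.L*, *psmc3.S*, *psmc4.L*, *psmc6.L*, *psmc6.S*, *psmd7.L* and *psmd10.L*. Of these, *psma6.L*, *psmc6.L* and *psmc6.S* could not be tested without probe sets of possible shared binding. Of the 4 vegetal calls, 0 were.

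**Figure D5:**
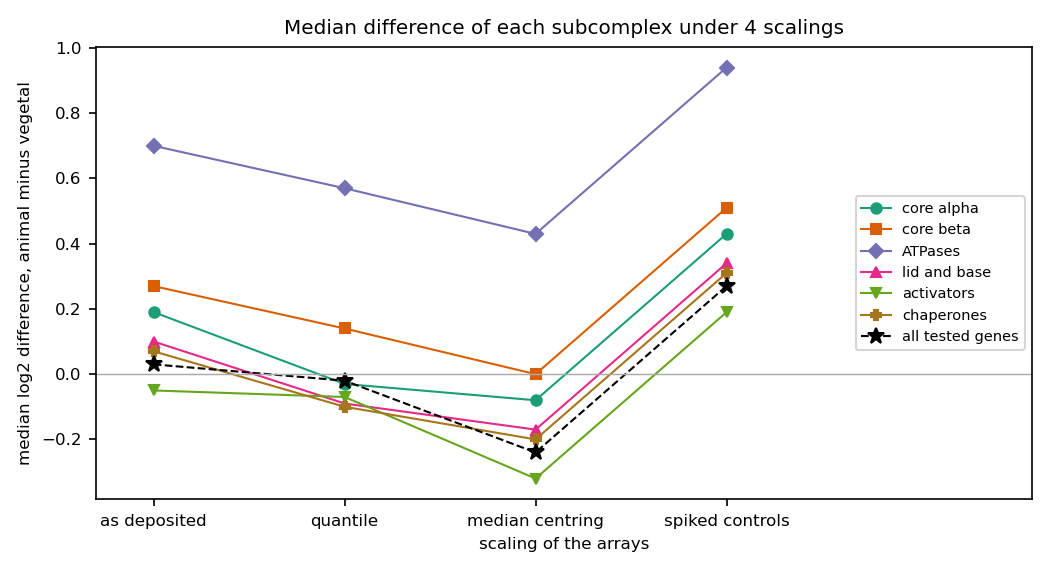
Median log2 difference, animal minus vegetal, of each subcomplex and of all tested genes (dashed) under 4 scalings of the arrays; lines join the points of a group and mark no order. The ATPases run from 0.43 to 0.94 and the median of all genes from -0.24 to 0.27. Median centring and spiked controls shift all groups alike, so their order is open to change under quantile normalisation alone. The beta median counts *psmb6.S*, which passed the filter through its animal values alone.

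Genes that work with the proteasome but are no members by symbol were counted in the same way. The list of shuttle factors, ubiquitin genes, the p97 unfoldase and its cofactors, and regulators matched 37 genes, of which 35 were tested. Of these, 11 were called animal and 2 vegetal (limma; 7 and 4 under median centring), 31.4% and 5.71%, 37.1% together, against 27.1%, 23.7% and 50.9% of all genes. The median was 0.15. *rad23b.S*, a shuttle factor that carries ubiquitinated proteins to the proteasome, read 85, 72.9 and 99.5 in animal and 29, 26.6 and 22.5 in vegetal RNA, without overlap, a difference of 1.72 (limma adjusted p = 3.54e-06). Its homeolog *rad23b.L* was at -0.02 (limma adjusted p = 0.912). *nfe2l1.S* encodes the transcription factor that raises proteasome gene expression in mammals. It read 162.8, 195.3 and 144.7 against 82.5, 71.9 and 86.1, again without overlap, a difference of 1.06 (limma adjusted p = 2.25e-05), which was not past the threshold with the mean of its probe sets (0.167). The related *nfe2l2.L* was higher in animal RNA too, at 31.6, 37.9 and 35.3 against 13.9, 23.2 and 16.3 (limma adjusted p = 0.00434).

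The shuttle factor *ubqln1.L* was higher in animal RNA by 0.91 (limma adjusted p = 6.05e-05), at 243.6, 269.1 and 251.5 against 160.4, 143.2 and 108.1. Its relative *ubqln4.L* was higher in vegetal RNA, at 159.8, 177.9 and 154.2 against 292.5, 290.9 and 216.7, a difference of -0.69 (limma adjusted p = 0.000386), which was 0.0705 under scaling to spiked controls. *zfand5.S*, a proteasome-binding zinc finger protein, was at -0.28 (limma adjusted p = 0.00495), in a call that ended under quantile normalisation (0.19), scaling to spiked controls (0.795) and no trend (0.0528). *paaf1.S*, a factor of base assembly, was at 1.40 (limma adjusted p = 0.0438), with scattered values of 25.5, 13.7 and 20.3 against 2.3, 13 and 12.8. That call ended without animal array 1 (adjusted p = 0.141), animal array 3 (0.101) or vegetal array 1 (0.175). It also ended under quantile normalisation (0.0959), under median centring (0.0825) and with no filter (0.264). Vegetal array 1, at 2.3, was not above the unspiked controls. Chosen after its values were seen, the lid subunit *sem1.S*, which the naming rule misses, read 1195.9, 1105.7 and 1237.7 in animal and 688.8, 796.2 and 626.7 in vegetal RNA. It was higher in animal RNA by 0.75 (limma adjusted p = 8.01e-06), with no overlap. The ID of this probe set marks possible binding to several transcripts. Another *sem1.S* probe set was at 1.60 (limma adjusted p = 6.94e-07). A 3rd, at 134.7, 88.3 and 92.2 against 45.9, 102.8 and 77.1, overlapped and was not called (0.53, limma adjusted p = 0.0854).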

How the data were processed

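The 6 1-colour Affymetrix-format arrays were read as the authors' deposited linear intensities, made with GCOS per the submitters' processing notes; its version is not given in the sources used here. Each array's 2% trimmed mean intensity was 150, and no further scaling was done. Of 32635 probe sets, 96 controls were left out. Of the others, 15495 had 1 gene symbol, 279 several and 16765 none; 15384 IDs matched the RefSeq table (Xenopus_laevis_v10.1), which changed 2 symbols. Values under 1 were set to 1, log2 was taken, and probe sets in the lowest 40% by mean (mean intensity under 6.94) were left out. limma 3.58.1 in R 4.3.3 (lmFit, eBayes with trend) was fitted to 19523 probe sets over all 6 arrays without covariates, two-sided, with Benjamini-Hochberg adjustment and a threshold of 0.05. The brightest probe set stood for a gene. Homeolog pairs were fitted as the difference of .L and .S per array. The highest of 59 unspiked controls on an array served as its background. The number of arrays limits the precision. The scripts were tested on simulated data.

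Per-array values were given by a rule: the 3 members with the largest called difference per direction and subcomplex, called homeolog pairs and genes with opposite probe sets, with further members as examples; partner genes were up to 5 called per direction. The members and lists were chosen with earlier results of these data known. The 16 alternatives were: 3 other scalings, 2 other filters, an offset of 16, no trend, the mean of probe sets, the replicate number as a block, probe sets of possible shared binding left out, and each array left out. No sequence is given, as no genome or sequence table was among the sources used here, and no coordinate is given.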

Additional observations from a re-analysis of the deposited data

How the results depend on the processing

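Of the 22 called members, 22 were kept with an offset of 16 and with the replicate block, 17 to 21 under the other alternatives except median centring, which kept 14 and gained 7. Not all of the 22 were tested in every alternative. With the lowest 60% left out, 17 were kept and 0 ended. Without probe sets of possible shared binding, 17 were kept and 2 ended. Quantile normalisation left 1 beta subunit higher in animal and 0 activators in vegetal RNA. Median centring gave 10 members animal and 12 vegetal; among vegetal calls it gave 1 alpha subunit, 3 ATPases, 5 psmd genes, 3 activators and 4 partner genes, and among animal calls 0 beta subunits, 0 activators and 7 partner genes. It also turned *psme3.L* to -0.25 (limma adjusted p = 0.0363, of 0.0363 to 0.998 over its alternatives). Scaling to spiked controls gave 0 members vegetal (1 at an unadjusted p under 0.05 in limma), hence 0 ATPases, 0 psmd genes, 0 activators, and 0 partner genes, and 8 psmd genes animal.

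With no filter, 2 beta subunits were animal and 0 psmd genes vegetal. The 1 beta subunit called vegetal was *psmb8.L*, whose animal values lay under the unspiked controls. Leaving out the lowest 60% left 3 ATPases animal and 2 homeolog pairs called, with fewer genes tested. With no trend, 2 members, 1 psmd gene, 0 activators and 1 partner gene were vegetal, and with the mean of probe sets 1 psmd gene. Without probe sets of possible shared binding, an alternative chosen after seeing the data, 2 ATPases were animal. Another probe set then stood for *faf1.S*, at 0.93 (limma adjusted p = 0.00144) in place of -0.28. That probe set was at 0.93 with all probe sets in the fit too (limma adjusted p = 0.00154), so the 2 probe sets differ.

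Leaving out 1 array at a time gave 15 to 20 members animal and 3 to 5 vegetal; 3 to 4 and 0 to 1 alpha subunits; 2 to 3 beta subunits animal; 4 to 5 and 1 to 2 ATPases; 5 to 7 and 1 to 2 psmd genes; 4 to 6 homeolog pairs; 10 to 12 partner genes animal and 2 vegetal. Arrays of the same number did not deviate together (correlations of -0.0229, 0.00628 and -0.0135), so the numbers are not known to pair the arrays. With the replicate block the members' counts were again 18 and 4, and 4 homeolog pairs were called, without *psma1* and *psmc5*. Values near the unspiked controls limit *psmb6.S*, *psma6.S*, *psmg1.L* and the members under the filter.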

Other observations

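A group of 3 probe sets is annotated to both homeologs of a proteasome gene and entered no count of genes. That of *psmc6* read 207.2, 202.5 and 182.7 in animal and 101.9, 120.8 and 130.4 in vegetal RNA, 1.68-fold higher in animal RNA (95% interval 1.4 to 2.03, limma adjusted p = 0.00016). That of *psmd2*, a large scaffold subunit of the base, read 178.8, 171.4 and 170.3 against 200, 227.5 and 188.3, with no overlap and a difference of -0.24 (limma adjusted p = 0.0864). That of *psma4* read 144.1, 122 and 100.3 against 131.9, 104.8 and 95.7, with overlap (0.14, limma adjusted p = 0.5).

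Genes with names close to the rule gave these values. *psmb7.2.L*, whose symbol is not psmb and a plain whole number, was not above the unspiked controls on any array. *psmc3ip.L* was at 0.24 (limma adjusted p = 0.582) and *psme3ip1.S* at -0.47 (limma adjusted p = 0.0466). *psmf1.L*, which encodes a proteasome inhibitor in mammals, read 23.1, 27.1 and 17.1 in animal and 12.6, 16.4 and 12.4 in vegetal RNA, without overlap, at 0.69 (limma adjusted p = 0.0583). It passed the test without animal array 3 (adjusted p = 0.0382) or vegetal array 2 (0.0445).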
